A study of Mus musculus with 10 samples.

Results

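Immediate-early genes are switched on within minutes of a stimulus, without new protein synthesis, and the heat-shock genes encode chaperones that refold or shield damaged proteins. The group described here is a list of 38 such genes, given by name, out of the 49315 genes counted in each library. It holds 7 AP-1 and ATF subunits, 10 other transcription factors of the EGR, NR4A, KLF and CSRNP families, 13 feedback regulators that act on kinases, mRNA decay or signalling, and 8 heat-shock chaperones. All 38 were matched to 1 gene each, and all 38 passed the filter on low counts in every comparison. Serum response factor and its ETS-family partners drive many immediate-early genes from CArG boxes, CREB acts at cyclic AMP response elements, and heat shock factor 1 binds arrays of the GAA element. In microglia, the macrophages of the brain parenchyma, genes of these kinds are known to respond to tissue dissociation and to injury. The procedure used to dissociate the brains was not given in the sources used here.

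Gene counts were available for 10 libraries of microglia sorted by flow cytometry from brains of wild-type C57BL/6 mice. At 9 months of age the cells gave 2 CD11c+ and 2 CD11c- libraries, and at postnatal day 5 (P5) they gave 3 of each. CD11c is the integrin alpha X chain, a surface protein of dendritic cells and of a subset of microglia, and the comparison at each age asked how the cells that carry it differ from those that do not. The 9-month RNA was amplified with the SMART-Seq v4 kit for very small inputs, whereas the P5 libraries are described only as made with standard Illumina methods. Age and kit therefore cannot be told apart, and the ages were compared by test only in how far CD11c+ differed from CD11c- cells. No label says whether the replicates came from separate animals or pools, and the p-values reflect only the scatter among these libraries, part or all of which could be technical.

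The libraries held 11892082 to 25483573 counts, apart from P5 CD11c+ replicate 2 with 2619610. That library stood apart: 23033 genes reached 1 CPM (a count scaled to library size), against 12762 to 14735 in the other 9 libraries, and its median correlation with the other P5 libraries was 0.716. Itgax, which encodes CD11c, was at 232, 47.5 and 138 CPM, scaled by trimmed means of M-values (TMM) as are all levels in CPM below, in the P5 CD11c+ libraries and 30.6, 69.5 and 35.8 in the P5 CD11c- libraries, so replicate 2 lay among the CD11c- values; P5 fold changes of genes described singly are given with and without it. At 9 months Itgax was at 24.8 and 18 CPM in CD11c+ and 6.22 and 3.89 CPM in CD11c- cells. The homeostatic microglia genes P2ry12 and Tmem119 were detected in every library. Neutrophil markers, a list of 18 genes, took 14.1% and 19.1% of the counts of the 9-month CD11c- libraries and 0.387% or less of every other library. In bulk RNA of this kind, fewer cells of a type and less RNA per cell cannot be told apart.

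At P5, Egr2 and the mRNA-decay factor Zfp36l1 were the 2 members whose levels were higher in every CD11c+ than in every CD11c- library, and no member was lower in every one. Genes that separated the groups this way made up 8.39% of all genes tested in the upward direction and 8.68% in the downward direction. With all 6 libraries, edgeR's quasi-likelihood test called 0 of the 38 members at an adjusted p under 0.05, against 0.299% of all 15410 genes tested. At an unadjusted p under 0.05 it counted 2 members, both higher, against 6.99% of all genes. DESeq2 called 2 members higher, against 3.74% of all genes, and limma-voom with quality weights called 3 higher and 2 lower, against 21.2% of all genes. Without CD11c+ replicate 2, edgeR called 3 members higher and 0 lower, Egr2, Egr3 and Zfp36l1, where 5.06% of all genes were called higher and 4.42% lower. The median log2 fold change of the 38 members, CD11c+ over CD11c-, was -0.12 with all libraries and -0.04 without replicate 2, beside 0.06 and -0.00 for all genes tested.

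Egr2, a zinc-finger factor of the EGR family that is known to control macrophage differentiation states, was at 43.3, 44.2 and 41.5 CPM in P5 CD11c+ microglia, against 17.7, 14.6 and 14.8 CPM in CD11c- microglia. The groups were far apart, and the library that stood apart in other respects lay with the rest of its group. The log2 fold change was 1.45 ± 0.20 (SE; edgeR adjusted p = 0.062) with all 6 libraries and 1.46 ± 0.16 (edgeR adjusted p = 0.00355) without CD11c+ replicate 2. Egr2 lies on chromosome 10 from 67535475 to 67542188, plus strand, in the deposited coordinates. RefSeq lists 5 start sites for it in GRCm38.p6, each with a window from 250 bases before the start to 50 bases after it. Of these windows, 4 hold a CArG box, the element bound by serum response factor. The windows starting at 67537619, 67537620 and 67537680 overlap and hold the same box, CCATATATGG, and the window starting at 67537316 holds another, CCTTTTTTGG. One of these windows is shown because Egr2 is the member with the clearest separation, with the CArG box in capitals (chr10:67537619-67537918, plus strand):
Egr2: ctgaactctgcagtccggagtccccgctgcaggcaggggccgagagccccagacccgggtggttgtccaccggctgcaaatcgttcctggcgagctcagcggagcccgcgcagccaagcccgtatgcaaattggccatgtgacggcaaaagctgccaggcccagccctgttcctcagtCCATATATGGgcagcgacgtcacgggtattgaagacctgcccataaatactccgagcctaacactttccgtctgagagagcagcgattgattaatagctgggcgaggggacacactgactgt
Among the 31 members with a promoter window, 2 (Egr2 and Zfp36) hold a CArG box on either strand, and 1.81% of all genes with a window do. The match is a description of these letters only.

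Egr3, another EGR factor, was counted at 5.2, 0 and 7.03 CPM in P5 CD11c+ libraries and at 0.872, 0.992 and 1.23 CPM in CD11c- libraries. The 0 is in replicate 2, where 3 counts, the most that a count of 0 allows for counting error, would be 1.1 CPM, and the value is therefore within reach of the CD11c- libraries at that depth. Its log2 fold change was 2.01 ± 1.22 (edgeR adjusted p = 0.8) with all libraries and 2.60 ± 0.34 (edgeR adjusted p = 0.00698) without replicate 2. Zfp36l1, which promotes decay of mRNAs with AU-rich elements, was at 389, 632 and 359 CPM in CD11c+ microglia, against 252, 213 and 217 CPM in CD11c- microglia. Here the groups did not overlap in any library. The log2 fold change was 1.02 ± 0.32 (edgeR adjusted p = 0.437) with all libraries and 0.75 ± 0.16 (edgeR adjusted p = 0.0324) without replicate 2.

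The classical AP-1 genes overlapped between the groups at P5. Fos, whose product dimerizes with JUN proteins, was at 1176, 715 and 2999 CPM in CD11c+ libraries, against 975, 1467 and 1498 CPM in CD11c- libraries. Jun was at 1090, 1396 and 3232 CPM in CD11c+ libraries, against 1059, 1819 and 1445 CPM in CD11c- libraries. For each of these genes CD11c+ replicate 3 was the highest of the 6 libraries, and the other CD11c+ libraries lay within or below the CD11c- range. The log2 fold changes were 0.31 ± 0.57 for Fos and 0.40 ± 0.50 for Jun (edgeR adjusted p = 0.909 and 0.853), and 0.69 ± 0.39 and 0.61 ± 0.44 without CD11c+ replicate 2 (edgeR adjusted p = 0.303 and 0.423). Atf3, a stress-induced repressor of the ATF family, was at 103, 111 and 785 CPM in CD11c+ libraries, against 169, 883 and 614 CPM in CD11c- libraries, with a log2 fold change of -0.74 ± 0.95 (edgeR adjusted p = 0.861), and of -0.30 ± 0.87 without CD11c+ replicate 2 (edgeR adjusted p = 0.859). Low and high libraries occurred in both groups. Fosb, the other FOS gene of the list, reached 1934 CPM in CD11c+ replicate 3 and lay between 375 and 729 CPM in the other 5 libraries. Over the members not given singly at P5, the log2 fold change with all libraries lay between -1.10 for Dusp2, a nuclear MAP kinase phosphatase, and 1.78 for Nr4a3. Dusp2 was at 22, 26.5 and 53.8 CPM in CD11c+ and 33.5, 95 and 92.7 CPM in CD11c- libraries, and Nr4a3 had 3 to 90 counts a library. Without CD11c+ replicate 2 Dusp2 was at -0.93 and Nr4a3 at 1.38. EdgeR called none of the members not given singly, with or without that library. Limma-voom with quality weights called 2 of them lower, Dusp2 (-1.23, adjusted p = 0.042) and Hspe1 (-0.46, adjusted p = 0.0432).

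The same held for the other induced factors. Egr1, a growth factor-induced zinc-finger factor, was at 408, 445 and 1130 CPM in CD11c+ libraries, against 942, 794 and 914 CPM in CD11c- libraries (log2 fold change -0.42 ± 0.46, edgeR adjusted p = 0.839). Nr4a1, an orphan nuclear receptor, was at 235, 85.4 and 233 CPM in CD11c+ libraries, against 66.5, 346 and 416 CPM in CD11c- libraries (-0.58 ± 0.70, edgeR adjusted p = 0.85). Klf2, a Krüppel-like factor that restrains inflammatory genes in myeloid cells, was at 202, 658 and 539 CPM in CD11c+ libraries, against 289, 1304 and 619 CPM in CD11c- libraries (-0.66 ± 0.66, edgeR adjusted p = 0.824). All of these groups overlapped. Without CD11c+ replicate 2 the log2 fold changes were -0.17 ± 0.39 for Egr1, -0.21 ± 0.63 for Nr4a1 and -0.97 ± 0.65 for Klf2, and none was called by edgeR. Among the feedback genes, Dusp1, a phosphatase that switches off MAP kinases, was at 622, 712 and 1781 CPM in CD11c+ libraries, against 447, 950.4 and 852 CPM in CD11c- libraries (0.47 ± 0.53, edgeR adjusted p = 0.842). Rgs1, which shortens G-protein signalling, was at 24.6, 30.6 and 155 CPM in CD11c+ libraries, against 49.1, 238 and 136 CPM in CD11c- libraries (-1.0 ± 0.85, edgeR adjusted p = 0.809). Btg2, an antiproliferative cofactor of mRNA deadenylation, was at 116, 143 and 297 CPM in CD11c+ libraries, against 144, 309 and 344 CPM in CD11c- libraries (-0.52 ± 0.49, edgeR adjusted p = 0.815). For each of these 3 feedback genes the spread within a group exceeded the difference between the groups. Without CD11c+ replicate 2 the log2 fold changes were 0.71 ± 0.47 for Dusp1, -0.62 ± 0.81 for Rgs1 and -0.33 ± 0.47 for Btg2, and none was called by edgeR.

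The inducible HSP70 genes Hspa1a and Hspa1b had low counts at P5. Hspa1a had 27, 5 and 168 counts in the CD11c+ libraries, which is 1.65, 1.84 and 8.56 CPM, against 16, 75 and 56 counts in the CD11c- libraries, which is 0.997, 6.2 and 5.74 CPM. Hspa1b had 13, 1 and 60 counts in the CD11c+ libraries, against 11, 6 and 11 counts in the CD11c- libraries. Neither gene separated the groups. The log2 fold changes with and without CD11c+ replicate 2 were -0.08 ± 0.97 and 0.30 ± 0.83 for Hspa1a and 0.95 ± 0.86 and 1.38 ± 0.67 for Hspa1b, and edgeR called neither gene. The constitutive HSP70 gene Hspa8 was at 1210, 263 and 1348 CPM in CD11c+ libraries, against 919.6, 1115 and 1046 CPM in CD11c- libraries, with the low value in replicate 2. That library turned the direction: the log2 fold change of Hspa8 was -0.13 ± 0.59 with it and 0.35 ± 0.19 without it (edgeR adjusted p = 0.973 and 0.28). Hsp90aa1, the stress-inducible HSP90 gene, was at 175, 3017 and 292 CPM in CD11c+ libraries, against 289, 418 and 576 CPM in CD11c- libraries. A single library, CD11c+ replicate 2, thus set its direction: the log2 fold change was 1.44 ± 1.05 with it and -0.85 ± 0.34 without it (edgeR adjusted p = 0.801 and 0.156). Dnajb1, the HSP40 partner of HSP70, was at 67.3, 21.4 and 87.7 CPM in CD11c+ libraries, against 79.1, 82.2 and 81 CPM in CD11c- libraries (-0.45 ± 0.47, edgeR adjusted p = 0.832). Without replicate 2, its lowest library, the value for Dnajb1 was -0.03 ± 0.15 (edgeR adjusted p = 0.921).

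**Figure D1:**
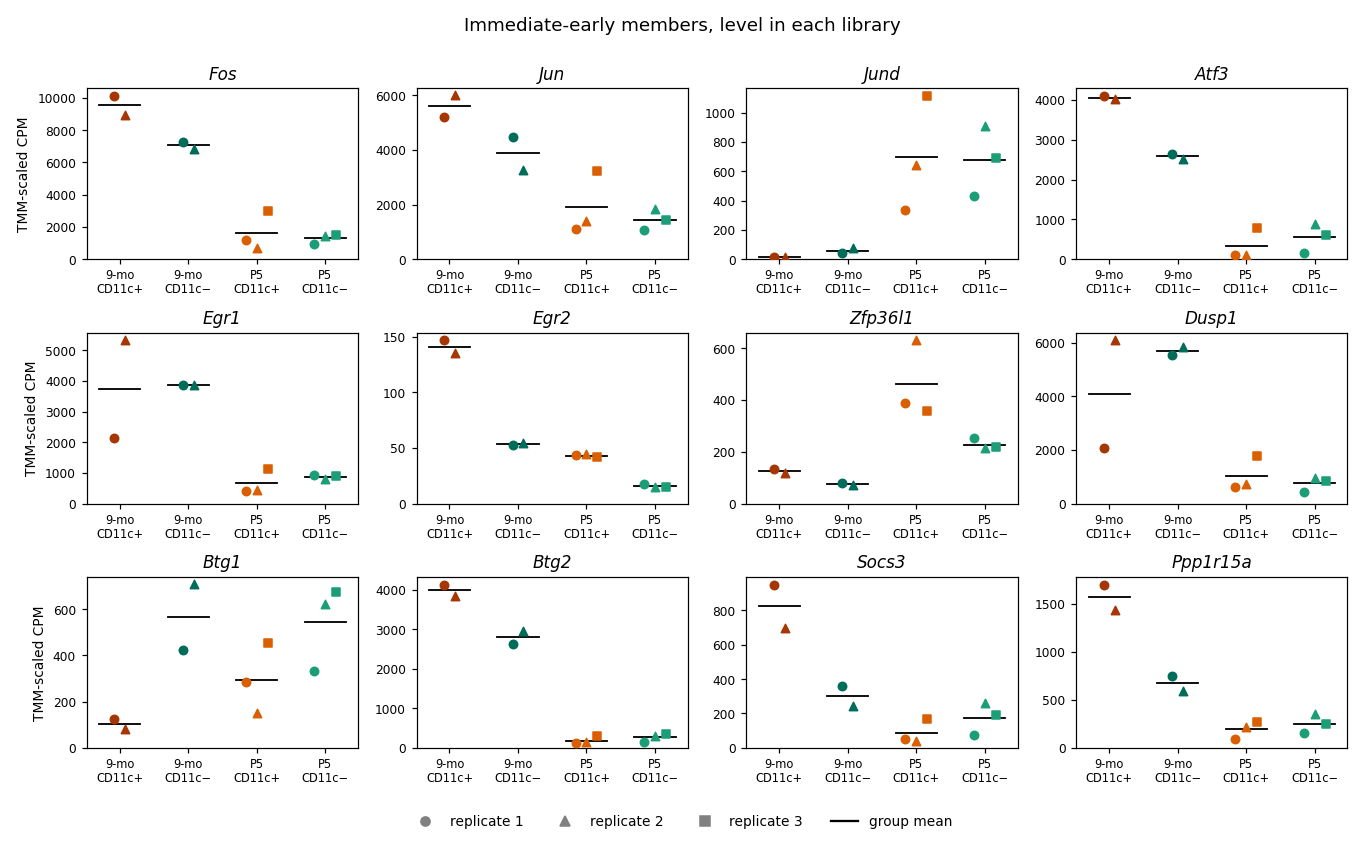
Level of 12 immediate-early members in each of the 10 libraries, in TMM-scaled CPM (vertical axes, linear and separate for each gene), with a line at each group mean; the scaling was done within each age. Egr2 is higher in every CD11c+ library at both ages, while Fos and Jun overlap at P5, where CD11c+ replicate 3 is the highest library.

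Many members differed between replicates of the same group at P5. In CD11c+ replicate 3, 34 of the 38 members were higher than in CD11c+ replicate 1 and 24 were over 2-fold higher (63.2%), whereas 2.09% of all genes tested were over 2-fold higher. The median log2 ratio of these libraries was 1.43 for the members and -0.01 for all genes. Among the CD11c- libraries, replicate 2 exceeded replicate 1 by over 2-fold for 19 of the members (50%), against 8.51% of all genes, and replicate 3 exceeded replicate 1 for 16 of them (42.1%), against 10.9% of all genes. CD11c- replicates 2 and 3 were alike, with a median log2 ratio of 0.03 for replicate 2 over replicate 3. The median log2 ratio of CD11c+ replicate 3 over replicate 1 was 1.51 for the 30 immediate-early members and 0.28 for the 8 chaperones, and that of CD11c+ replicate 3 over replicate 2 was 1.13 for the immediate-early members and 1.44 for the chaperones. Between these CD11c+ libraries Atf3 differed 7.64-fold and Rgs1 6.31-fold, replicate 3 being the highest and replicate 1 the lowest of the group for each. Over the CD11c- libraries Nr4a3 and Gadd45b, a stress sensor that activates MAP kinase signalling, spanned 10.2-fold and 10.1-fold. The span of Nr4a3 rested on only 3, 23 and 11 counts in replicates 1, 2 and 3, and that of Gadd45b on 92, 703 and 238. These are descriptions of single libraries and carry no test. The share of counts in mitochondrially encoded mRNAs was 2.38%, 0.771% and 2.79% in CD11c+ replicates 1, 2 and 3 and 7.15%, 20.6% and 28% in CD11c- replicates 1, 2 and 3. Its part in these ratios was not tested.

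At 9 months, 14 of the 38 members rose in CD11c+ microglia and 4 fell, by edgeR's quasi-likelihood test at an adjusted p under 0.05. Over all 15740 genes tested, 14.8% were called higher and 18.2% lower. The genes that rose were Junb, Atf3, Egr2, Csrnp1, Zfp36, Zfp36l1, Btg2, Socs3, Ppp1r15a and the chaperone genes Hspa1a, Hspa1b, Hspa8, Hsp90ab1 and Dnajb1, and those that fell were Fosl2, Jund, Ier5 and Btg1. In a fit of all 10 libraries, which takes its spread from the P5 libraries as well, only Egr2 of these 18 passed. Of all genes, 280 were called higher and 878 lower there, against 2333 and 2869 with the 9-month libraries alone. The others of the 18 had similar fold changes in that fit, such as 1.58 for Socs3 and -2.34 for Btg1 (edgeR adjusted p = 0.288 and 0.0648). The median log2 fold change, CD11c+ over CD11c-, was 0.40 for the members and 0.02 for all genes. By role, 2 of 7 AP-1 and ATF subunits rose and 2 fell, 2 of 10 other transcription factors rose, 5 of 13 feedback regulators rose and 2 fell, and 5 of 8 chaperones rose. These directions are relative to the whole RNA of each library. When the libraries were instead scaled to the 23 homeostatic microglia markers, 0 members were called higher and 22 lower, with a median of -0.70; that scaling moved the median of all genes to -1.08, with 0.94% of genes called higher and 50.1% lower.

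Among the AP-1 and ATF genes, Atf3 was at 4091 and 4023 CPM in 9-month CD11c+ microglia, against 2645 and 2513 CPM in CD11c- microglia. Replicates lay close together, and the log2 fold change was 0.65 ± 0.13 (edgeR adjusted p = 0.0101). Junb, an AP-1 subunit, was at 3684 and 2921 CPM in CD11c+ cells, against 2104 and 1643 CPM in CD11c- cells (0.82 ± 0.19, edgeR adjusted p = 0.0159). Fos was at 10133 and 8967 CPM in CD11c+ cells, against 7284 and 6844 CPM in CD11c- cells, and Jun at 5183 and 6003 CPM, against 4484 and 3274 CPM. The groups did not overlap for either gene, which is weak evidence with so few libraries in each, here and below. How many of all genes separate this way at 9 months was not counted. For both genes the adjusted p missed the threshold (0.43 ± 0.14, edgeR adjusted p = 0.0532 for Fos, and 0.53 ± 0.19, edgeR adjusted p = 0.0712 for Jun). Limma-voom with quality weights called both higher (adjusted p = 0.0183 and 0.0265), as did edgeR with no filter on low counts (adjusted p = 0.00191 and 0.000253). Jund, the constitutive JUN family member, went the other way, with 13.9 and 14.5 CPM in CD11c+ cells, against 41 and 77.6 CPM in CD11c- cells (-2.06 ± 0.32, edgeR adjusted p = 0.00341). Fosl2, a FOS-related AP-1 subunit, was at 17.5 and 13.9 CPM in CD11c+ cells, against 37.9 and 41.5 CPM in CD11c- cells (-1.34 ± 0.21, edgeR adjusted p = 0.00377). With the homeostatic scaling Jund and Fosl2 stayed lower (-3.13 and -2.45), while Junb and Atf3 were at -0.30 and -0.45 and were not called. Under that scaling Fos was at -0.68 and called lower (edgeR adjusted p = 0.0129), and Jun was at -0.59 and not called.

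Egr2 rose again at 9 months, with 147 and 135 CPM in CD11c+ microglia, against 53 and 54.1 CPM in CD11c- microglia. The log2 fold change of 1.40 ± 0.15 (edgeR adjusted p = 0.000864) had the smallest adjusted p of the 38 members, and with the homeostatic scaling it was 0.29 (edgeR adjusted p = 0.269). Csrnp1, a nuclear factor induced by axin, was at 253 and 171 CPM in CD11c+ cells, against 131 and 114 CPM in CD11c- cells (0.79 ± 0.21, edgeR adjusted p = 0.0306). Where a 9-month library is left out, its group holds 1 library that is assumed to vary like the other group. The call of Csrnp1 was lost when CD11c+ replicate 1 was left out (edgeR adjusted p = 0.127) and when CD11c- replicate 2 was left out (edgeR adjusted p = 0.0639). Egr1 was at 2155 and 5330 CPM in CD11c+ cells, against 3857 and 3852 CPM in CD11c- cells, so the CD11c+ libraries lay on either side of the CD11c- ones (-0.04 ± 0.37, edgeR adjusted p = 0.945). Without CD11c+ replicate 2, which leaves the low CD11c+ library alone, the value for Egr1 was -0.81 (edgeR adjusted p = 0.00256). Nr4a1 was at 258 and 302 CPM in CD11c+ cells, against 218 and 165 CPM in CD11c- cells (0.55 ± 0.18, edgeR adjusted p = 0.0602). Limma-voom with quality weights called Nr4a1 higher (adjusted p = 0.0369), as did edgeR with no filter on low counts (adjusted p = 0.00412). With the homeostatic scaling Nr4a1 was at -0.57 and not called. Klf2 was at 107 and 127 CPM in CD11c+ cells, against 128 and 264 CPM in CD11c- cells (-0.74 ± 0.32, edgeR adjusted p = 0.123), and its value was -0.85 without CD11c+ replicate 2 and -1.17 without CD11c- replicate 1 (edgeR adjusted p = 0.00676 and 0.00785, each with 1 library in a group).

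The largest increases among the feedback regulators were in Socs3 and Ppp1r15a. Socs3, which blocks JAK-STAT signalling downstream of cytokine receptors, was at 947 and 695 CPM in CD11c+ microglia, against 361 and 244 CPM in CD11c- microglia (1.44 ± 0.24, edgeR adjusted p = 0.00471). Ppp1r15a (GADD34), which directs dephosphorylation of the translation factor eIF2α, was at 1696 and 1435 CPM in CD11c+ cells, against 751 and 590.2 CPM in CD11c- cells (1.22 ± 0.18, edgeR adjusted p = 0.0026). Neither pair of groups overlapped. Zfp36l1 was at 134 and 117 CPM in CD11c+ cells, against 78.7 and 70.7 CPM in CD11c- cells (0.75 ± 0.16, edgeR adjusted p = 0.0131). Zfp36 (tristetraprolin), its relative that also destabilizes mRNAs with AU-rich elements, was at 3317 and 3098 CPM in CD11c+ cells, against 2401 and 2184 CPM in CD11c- cells (0.48 ± 0.14, edgeR adjusted p = 0.0347). Btg2 was at 4130 and 3846 CPM in CD11c+ cells, against 2638 and 2957 CPM in CD11c- cells (0.51 ± 0.14, edgeR adjusted p = 0.0307). The calls of Zfp36 and Btg2 were lost without CD11c+ replicate 1 (edgeR adjusted p = 0.0936 and 0.0707), and that of Btg2 also without CD11c- replicate 1 (edgeR adjusted p = 0.0582). With the homeostatic scaling Socs3 and Ppp1r15a were at 0.31 and 0.10 and not called, Zfp36l1 was at -0.36 and not called, and Zfp36 and Btg2 were at -0.63 and -0.59 and called lower.

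Btg1, a paralog of Btg2 that is known as a quiescence gene, had the largest fall of the group. It was at 126 and 83.7 CPM in CD11c+ microglia, against 424 and 708 CPM in CD11c- microglia (-2.43 ± 0.30, edgeR adjusted p = 0.00141). Btg1 and Btg2 thus moved in opposite directions under the TMM scaling, although not under the homeostatic scaling, where Btg1 was at -3.52. Ier5, a regulator of heat shock factor 1, was at 65.7 and 76.2 CPM in CD11c+ cells, against 127 and 242 CPM in CD11c- cells (-1.38 ± 0.30, edgeR adjusted p = 0.0132). Dusp1 was at 2088 and 6089 CPM in CD11c+ cells, against 5547 and 5846 CPM in CD11c- cells, so that 1 CD11c+ library lay far below the other 3. Its log2 fold change was -0.48 ± 0.43 (edgeR adjusted p = 0.438), and -1.42 without CD11c+ replicate 2, a value that rests on the low CD11c+ library alone (edgeR adjusted p = 2.07e-08, with the spread taken from the CD11c- libraries). Rgs1 was at 1248 and 1339 CPM in CD11c+ cells, against 884 and 1239 CPM in CD11c- cells (0.29 ± 0.19, edgeR adjusted p = 0.289). The 10 immediate-early members not given singly at 9 months, Fosb, Egr3, Nr4a2, Nr4a3, Klf4, Klf6, Dusp2, Ier2, Ier3 and Gadd45b, were not called, with log2 fold changes between -0.61 for Dusp2 and 1.62 for Egr3, whose libraries held 22 and 26 counts in CD11c+ and 4 and 7 counts in CD11c- cells.

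The promoters of 2 feedback genes that rose hold an intact cyclic AMP response element (CRE, TGACGTCA, a palindrome) between 250 bases before and 50 bases after the start, and these are shown with the element in capitals. The window of Ppp1r15a lies at chr7:45526219-45526518 and that of Btg2 at chr1:134079106-134079405, both on the minus strand of GRCm38.p6 (RefSeq):
Ppp1r15a: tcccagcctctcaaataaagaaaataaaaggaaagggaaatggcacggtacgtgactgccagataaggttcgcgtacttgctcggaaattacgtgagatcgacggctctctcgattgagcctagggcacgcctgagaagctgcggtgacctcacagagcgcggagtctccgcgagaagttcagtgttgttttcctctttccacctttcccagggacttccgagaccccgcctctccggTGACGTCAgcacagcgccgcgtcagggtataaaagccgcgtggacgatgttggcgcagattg
Btg2: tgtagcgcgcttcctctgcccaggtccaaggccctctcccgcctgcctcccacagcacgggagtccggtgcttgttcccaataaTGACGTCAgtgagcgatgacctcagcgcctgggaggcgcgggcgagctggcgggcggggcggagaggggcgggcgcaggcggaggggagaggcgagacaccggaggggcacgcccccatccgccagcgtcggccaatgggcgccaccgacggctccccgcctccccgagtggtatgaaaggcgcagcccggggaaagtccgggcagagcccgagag
Of the 31 members with a window, 3 hold this element (Btg2, Dusp1 and Ppp1r15a), beside 2.03% of all genes with a window. Dusp1 was not called. The AP-1 site TGANTCA was in 2 of the 31 (Csrnp1 and Zfp36l1), beside 8.97% of all genes, and the EGR site GCGGGGGCG was in 8 of the 31, beside 3.31% of all genes. The 8 were Dusp2, Fosb, Fosl2, Klf2, Klf4, Nr4a1, Socs3 and Zfp36, of which 2 rose, 1 fell and the other 5 were not called at 9 months. Both strands were searched.

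Chaperone genes rose in CD11c+ microglia at 9 months in 5 of 8 cases. Hspa1a was at 1311 and 1116 CPM in CD11c+ cells, against 678 and 503 CPM in CD11c- cells (1.04 ± 0.19, edgeR adjusted p = 0.00654). Hspa1b was at 1279 and 940 CPM in CD11c+ cells, against 537 and 396 CPM in CD11c- cells (1.25 ± 0.22, edgeR adjusted p = 0.00562). The coding sequences of these neighbouring genes differ in 8 aligned bases and are 99.58% identical, so reads can belong to either and their separate values are uncertain. Dnajb1 was at 645 and 649.8 CPM in CD11c+ cells, against 415 and 375 CPM in CD11c- cells (0.71 ± 0.14, edgeR adjusted p = 0.0087). Hspa8 was at 3321 and 3155 CPM in CD11c+ cells, against 2046 and 2056 CPM in CD11c- cells (0.66 ± 0.13, edgeR adjusted p = 0.00966). Replicates of these genes were close, and the groups did not overlap. Hsp90ab1, the constitutive HSP90 gene, was at 1110 and 1165 CPM in CD11c+ cells, against 759 and 782 CPM in CD11c- cells (0.56 ± 0.13, edgeR adjusted p = 0.0182), a call that was lost without CD11c+ replicate 2 (edgeR adjusted p = 0.053). Hspa8, Hsp90ab1, Hspd1 and Hspe1 have processed pseudogenes in the mouse genome, so their counts may have gained or lost shared reads.

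Hsp90aa1 was at 345 and 390 CPM in 9-month CD11c+ cells, against 329 and 385 CPM in CD11c- cells, with overlapping groups (0.04 ± 0.15, edgeR adjusted p = 0.863). The mitochondrial chaperonin genes Hspd1 (HSP60) and Hspe1 (HSP10), which share a promoter region on chromosome 1, were at 0.47 ± 0.16 and -0.19 ± 0.17 (edgeR adjusted p = 0.0618 and 0.431). Hspd1 was called higher with no filter on low counts and with the replicate number as a block (edgeR adjusted p = 0.0415 and 0.0489). It was called lower with the homeostatic scaling (-0.63, edgeR adjusted p = 0.0298). With the homeostatic scaling Hspa1a, Hspa1b, Hspa8 and Dnajb1 were at -0.08, 0.12, -0.45 and -0.40 and none was called, and Hsp90ab1 was at -0.54 and called lower.

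The promoter windows of Hspa1a (chr17:34972107-34972406) and Hspa1b (chr17:34959189-34959488), both on the minus strand of GRCm38.p6 from RefSeq, are shown because these genes ranked in the middle of the group by level at 9 months and near its bottom at P5. Capitals mark a pair of facing GAA elements, the core of a heat shock element:
Hspa1a: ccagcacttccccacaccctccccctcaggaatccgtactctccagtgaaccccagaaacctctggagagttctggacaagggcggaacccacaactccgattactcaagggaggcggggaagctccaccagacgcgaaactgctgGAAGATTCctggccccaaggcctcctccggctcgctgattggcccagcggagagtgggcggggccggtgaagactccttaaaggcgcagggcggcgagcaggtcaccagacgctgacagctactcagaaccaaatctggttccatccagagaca
Hspa1b: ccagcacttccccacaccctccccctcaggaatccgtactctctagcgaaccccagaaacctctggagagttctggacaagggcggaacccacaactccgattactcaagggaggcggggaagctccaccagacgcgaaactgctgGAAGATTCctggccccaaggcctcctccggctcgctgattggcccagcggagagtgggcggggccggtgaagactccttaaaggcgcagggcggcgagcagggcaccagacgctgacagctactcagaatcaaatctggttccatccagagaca
The windows differ in 4 of 300 bases, and the capitals are the same in each. This pair, GAANNTTC or TTCNNGAA on either strand, occurs in 7 of the 31 members (Egr2, Fosl2, Hspa1a, Hspa1b, Hspd1, Hspe1 and Jun) and in 17% of all genes with a window. The longer form of 3 alternating elements at the same spacing, of which the pair is a part, occurs in Hspd1 and Hspe1, whose windows overlap, and in 0.662% of all genes.

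**Figure D2:**
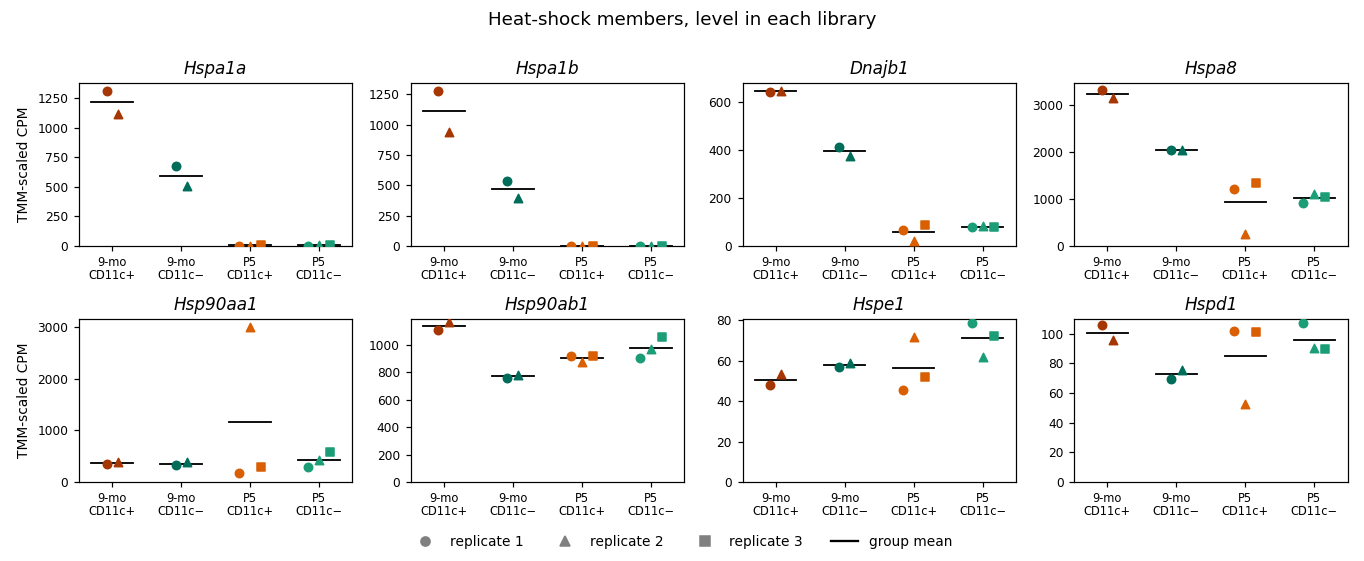
Level of the 8 heat-shock chaperones in each of the 10 libraries, in TMM-scaled CPM (vertical axes, linear and separate for each gene), with a line at each group mean; the scaling was done within each age. Hspa1a and Hspa1b are above 390 CPM in every 9-month library and below 10 CPM in every P5 library, and P5 CD11c+ replicate 2 alone is high in Hsp90aa1 and low in Hspa8.

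Marker genes of other cells moved with the 9-month difference. The 23 homeostatic microglia markers took 11.2% and 10.8% of counts in CD11c+ libraries, against 3.89% and 4% in CD11c- libraries, and 22 of them rose and 1 fell, with a median log2 fold change of 1.30. Of the 18 neutrophil markers, 17 fell in CD11c+ cells; they took 0.316% and 0.222% of the CD11c+ counts, against 14.1% and 19.1% of the CD11c- counts, and none of the 18 was at 0 in a 9-month library. All 11 monocyte markers fell, with 0.0442% and 0.0334% of the CD11c+ counts, against 1.36% and 1.58% of the CD11c- counts. That share rested largely on Chil3, at 9144 and 12822 CPM in CD11c- libraries, against 156 and 106 CPM in CD11c+ libraries. Whether it came from monocytes or from the cells with the neutrophil markers was not tested. Of the 15 markers of border-associated macrophages 14 rose and 1 fell, at 0.22% and 0.206% of the CD11c+ counts, against 0.0649% and 0.0548% of the CD11c- counts. The part of these cells in the members' fold changes was not tested; the homeostatic scaling above gives the values relative to the 23 markers, whose level per cell in each subset was not measured. At P5 most homeostatic markers went the other way, with a median log2 fold change of -0.77, and of -0.46 without CD11c+ replicate 2. With all libraries 0 of the 23 were called, and 13 were lower in every CD11c+ library (8.68% of all genes were). The border macrophage markers took 1.8%, 1.39% and 1.53% of the P5 CD11c+ counts, against 0.167%, 0.144% and 0.0825% of the CD11c- counts, with 8 of 15 called higher. The neutrophil markers took 0.0438% to 0.0612% there, against 0.118% to 0.387%. Egr2 and Zfp36l1 were higher in the same P5 libraries, and the part of these cells was not tested there either.

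**Figure D3:**
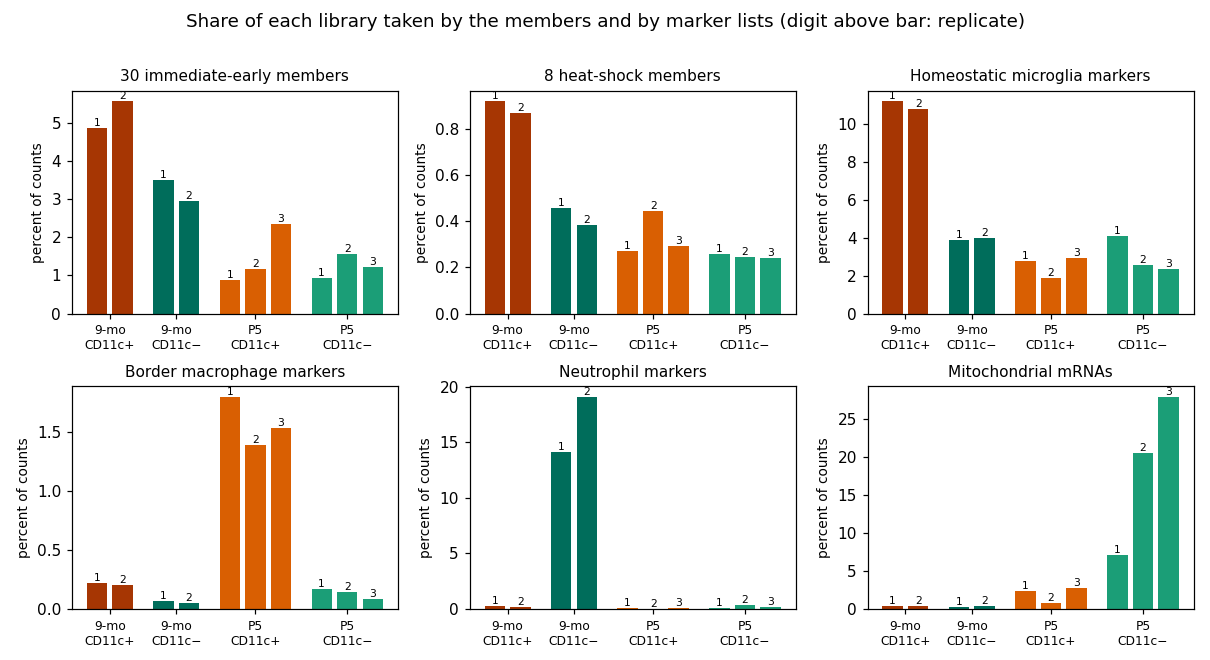
Percent of all counts of a library taken by the 30 immediate-early members, the 8 heat-shock members and 4 marker lists (vertical axes, linear from 0); each bar is 1 library and the digit above it the replicate. Members and homeostatic markers are both highest in the 9-month CD11c+ libraries, and neutrophil markers reach 14.1% and 19.1% in the 9-month CD11c- libraries.

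**Figure D4:**
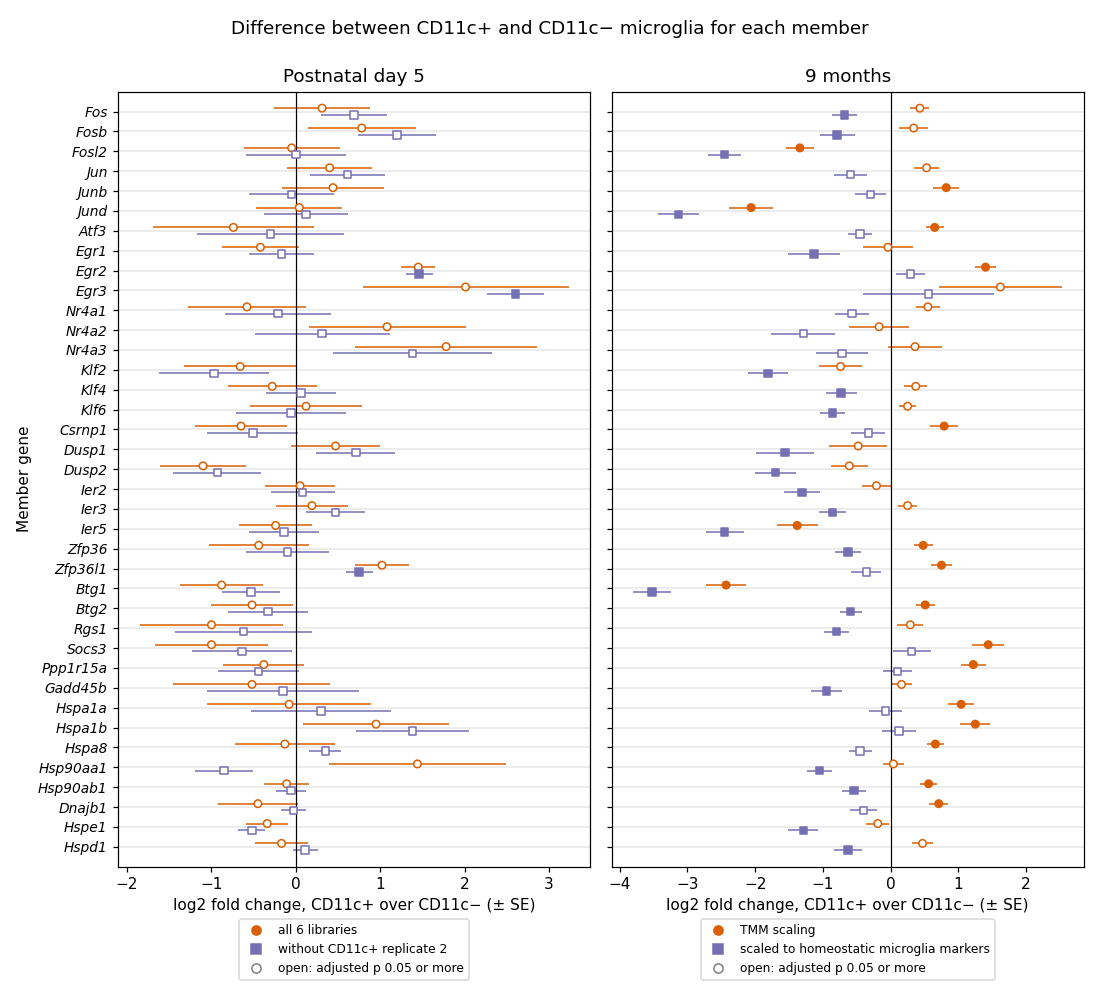
Log2 fold change of CD11c+ over CD11c- microglia (horizontal axis, ± SE) for each of the 38 members at P5, with and without CD11c+ replicate 2, and at 9 months, with TMM and with homeostatic scaling; filled symbols passed an adjusted p of 0.05. At 9 months the homeostatic scaling moves the members to the left, to a median of -0.70, against 0.40 with TMM.

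Whether the CD11c+ to CD11c- difference of a member changed with age was tested as an interaction over all 10 libraries, P5 minus 9 months. The quasi-likelihood test of edgeR called 0 of the 38 members, against 1.86% of the 19555 genes tested. At an unadjusted p under 0.05 it counted 3 members, against 16.1% of all genes. These were Jund (1.94 ± 0.78, edgeR adjusted p = 0.259), Socs3 (-2.58 ± 0.98, edgeR adjusted p = 0.232) and Ppp1r15a (-1.82 ± 0.68, edgeR adjusted p = 0.227). DESeq2 called 2 members, Jund and Hsp90ab1, against 15.1% of all genes, and limma-voom with quality weights called 4, Btg1, Socs3, Ppp1r15a and Hsp90ab1, against 20% of all genes. Without P5 CD11c+ replicate 2, 3496 genes were called, against 364 with all libraries. Of the members, Btg1 (1.82, edgeR adjusted p = 0.0354) and Dnajb1 (-0.86, edgeR adjusted p = 0.038) passed there. Egr2 and Zfp36l1, called higher at 9 months and, without CD11c+ replicate 2, at P5, had interaction values of -0.15 ± 0.37 and 0.01 ± 0.40. With the homeostatic scaling the median interaction of the members was 1.26, against -0.37 with TMM. That of all genes was 1.78, against 0.06 with TMM, and 4457 genes were called higher and 22 lower. The 5 members called, all higher, were Jund, Ier5, Btg1, Egr2 (1.60, edgeR adjusted p = 0.0141) and Zfp36l1 (1.89, edgeR adjusted p = 0.0474). The kit used at 9 months could enter the interaction and cannot be told apart from age.

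The order of the members by level, in TPM, a measure scaled to gene length and library size, put Fos first in all 4 groups. Its mean level was 12291 TPM in 9-month CD11c+, 4688 TPM in 9-month CD11c-, 1994 TPM in P5 CD11c+ and 1077 TPM in P5 CD11c- microglia. Jun was at rank 3 in each 9-month group and at rank 2 in each P5 group. Hspa1a stood at rank 13 of 38 in CD11c+ and rank 14 in CD11c- cells at 9 months, with 1238 and 315 TPM, and at rank 36 in CD11c+ and rank 35 in CD11c- cells at P5, with 3.84 and 2.49 TPM. Jund took the opposite course, with rank 33 in CD11c+ and rank 28 in CD11c- cells at 9 months (25.8 and 53.1 TPM) and rank 4 in each P5 group (1088 TPM in CD11c+ and 768 TPM in CD11c- cells). Nr4a3, an orphan nuclear receptor, and Egr3 were among the lowest in the order, with 0.294 to 9.08 TPM over the groups.

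Set side by side in plain CPM, the ages differed in most members, with no test because the kit differed as well. Among CD11c+ libraries, 24 members were higher in each 9-month library than in every P5 library (21.1% of all genes tested were) and 9 were lower in each (30.4% of all genes). Among CD11c- libraries the numbers were 19 higher (21.2% of all genes) and 11 lower (46.4% of all genes). The ratio of mean CPM at 9 months over P5 was 327 for Hspa1a in CD11c+ cells and 139 in CD11c- cells, and 851 and 588 for Hspa1b. For Btg2 it was 23.2 and 10.3, for Rgs1 20 and 7.35, and for Dnajb1 11.8 and 4.63. Within the same families the direction was not shared. For Jund the ratio was 0.0221 in CD11c+ and 0.0832 in CD11c- cells and for Fosb 0.218 and 0.266, while for Fos it was 6.32 and 5.19. The other 5 members, Egr3, Nr4a2, Hsp90aa1, Hspe1 and Hspd1, did not separate the ages in CD11c+ cells. Summed, the 30 immediate-early members took 4.85% and 5.56% of the CD11c+ counts and 3.49% and 2.96% of the CD11c- counts at 9 months. At P5 they took 0.87% to 2.34% of the CD11c+ counts and 0.945% to 1.55% of the CD11c- counts.

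Genes of the same pathways outside the 38 were followed in lists of their own. Their counts at 9 months are to be read against the 14.8% of all genes called higher and 18.2% called lower. At P5 edgeR called 0.299% of all genes with all libraries, and 5.06% higher and 4.42% lower without CD11c+ replicate 2. Of 47 other immediate-early genes, 43 were tested at P5 and 1 rose: Ccn1, a secreted matricellular protein (4.43 ± 0.49, edgeR adjusted p = 0.0302). Without P5 CD11c+ replicate 2, 4 of 44 rose, with Ier5l, Plk2 and Txnip beside Ccn1. At 9 months 13 of 45 rose and 14 fell, among them Ccn1 (3.49 ± 0.25, edgeR adjusted p = 0.000133), the growth-arrest gene Gadd45a (-4.25 ± 0.18, edgeR adjusted p = 2.73e-05), the AP-1 subunit Fosl1 (-4.49 ± 0.27, edgeR adjusted p = 6.79e-05) and the antiproliferative gene Tob1 (-3.44 ± 0.26, edgeR adjusted p = 0.000155). Their difference between the ages passed for 3 genes, Gadd45a, Tob1 and Cebpd, where 1.86% of all genes passed. Of 42 other chaperones and co-chaperones tested, 0 were called at P5 by edgeR with or without replicate 2, with 0 and 1 at an unadjusted p under 0.05, and 0 by DESeq2 or limma-voom with all libraries. At 9 months 8 of 42 rose and 2 fell, among them the mitochondrial HSP70 gene Hspa9 (1.03 ± 0.16, edgeR adjusted p = 0.00332), the HSP70-interacting St13 (1.05 ± 0.16, edgeR adjusted p = 0.00362) and the co-chaperone gene Bag1 (-3.23 ± 0.54, edgeR adjusted p = 0.00491).

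Of the unfolded protein and integrated stress response genes, 9 of 26 rose and 3 fell at 9 months, including the endoplasmic reticulum chaperones Canx (1.26 ± 0.14, edgeR adjusted p = 0.000986) and Hspa5 (0.89 ± 0.13, edgeR adjusted p = 0.00302). Asns, a target of the ATF4 arm, fell (-3.71 ± 0.24, edgeR adjusted p = 9.23e-05). Of the 32 upstream kinases and transcription factors, 3 rose at 9 months (Mef2c, Nfkb1 and Elk3) and 9 fell. A list of 25 genes known from microglia activated during isolation shares 14 genes with the 38, and 24 of the 25 were tested. At 9 months 8 of these rose and 6 fell. Among the 14 shared genes 5 rose and 2 fell, with a median log2 fold change of 0.36. Among the 10 others tested 3 rose and 4 fell, with a median of -0.10. At P5 0 of the 24 were called by edgeR with all libraries, with 1 higher at an unadjusted p under 0.05. Without CD11c+ replicate 2, 1 (Txnip) was called higher. DESeq2 called 1 gene of the list higher at P5, against 3.74% of all genes. Limma-voom with quality weights called 1 higher and 1 lower there, against 21.2% of all genes. With the homeostatic scaling at 9 months the counts were 0 higher and 16 lower for the isolation list, 1 and 26 for the other immediate-early genes and 0 and 26 for the other chaperones, beside 0.94% of all genes called higher and 50.1% lower.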

How the data were processed

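The authors deposited raw counts of reads per gene for each library, as whole numbers over 49315 genes. Per the submitters' processing notes, Trimmomatic 0.36, STAR 2.5.2b and Subread 1.5.2 were used; the build, strand setting and treatment of multiply mapped reads are not given in the sources used here, so overlapping and antisense genes cannot be told apart. Symbols came from GENCODE by gene identifier (48970 named); 31 of the 38 members had the same span in that annotation of GRCm38 as in the deposited tables. All per-sample columns were used (0 were not).

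CD11c+ was tested against CD11c- separately at each age by edgeR 4.0.16 (quasi-likelihood F-test; R 4.3.3; filterByExpr, TMM scaling), and the age difference as an interaction over all 10 libraries, with Benjamini-Hochberg adjustment over all genes tested and a threshold of 0.05. Levels are CPM with TMM scaling within an age; TPM used the deposited gene lengths. DESeq2 1.42.0, limma 3.58.1 (voom with quality weights), other scalings, no filter, a replicate block, a fit of all 10 libraries and leaving out each replicate were alternatives. The fits were also run on simulated data, but the spread assumed there and the outcome are not given here. That run therefore cannot show how the fits behave with the spread of these libraries, and no conclusion is drawn from it. No label says whether libraries with the same replicate number share a preparation, and the main fits did not pair them. The 38 members and all lists were chosen with earlier results of these data known. All 38 members could be named; values in full were given to members past the threshold and to Fos, Jun, Egr1, Atf3, Dusp1, Nr4a1, Klf2, Rgs1, Btg2, Hspa1a, Hspa1b, Hsp90aa1, Hspa8 and Dnajb1, and up to 4 genes with the smallest p were taken from each other list; Fosb, Hspd1, Hspe1, Nr4a3 and Gadd45b, outside that rule, were singled out after their values were seen. Promoter windows are from RefSeq (GRCm38.p6) and covered 31 of the 38 members.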

Additional observations from a re-analysis of the deposited data

How the results depend on the processing

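At P5 the number of members called was 0; it was 2 with DESeq2, 5 with limma-voom and quality weights, 1 in a fit of all 10 libraries and 0 to 3 when single replicates were left out. After the data were seen, CD11c+ replicate 2 was left out together with another choice, which gave 4 members with DESeq2, 2 with a replicate block and 3 with homeostatic scaling. Over all genes the P5 count of 46 became 555 with DESeq2, 3271 with limma-voom, 72 with homeostatic scaling, 138 in the fit of all 10 libraries and 0 to 1501 when single replicates were left out; with replicate 2 left out as well it was 2560 with DESeq2, 1276 with the block and 1237 with homeostatic scaling. At 9 months the 18 members were 1 (Egr2) in the fit of all 10 libraries and 17 to 22 when single replicates were left out, and the 5202 genes were 8037 with homeostatic scaling, 1158 in the fit of all 10 and 4006 to 6087 when single replicates were left out. The age difference gave 2 members with DESeq2, 4 with limma-voom, 5 with homeostatic scaling and 0 to 2 when single replicates were left out. Its 364 genes were 623 with DESeq2's size factors in edgeR, 693 with no filter, 2401 with DESeq2, 3917 with limma-voom, 4479 with homeostatic scaling and 0 to 3496 when single replicates were left out.

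The replicate numbers share no stated source. Deviations of same-numbered P5 libraries correlated at 0.457, 0.095 and -0.403, and those at 9 months at 0.086. With the number as a replicate block, 0 genes and 0 members were called at P5, 20 members (16 higher, 4 lower) and 5436 genes at 9 months, and 0 genes and 0 members for the age difference.

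Homeostatic scaling turned the direction of 22 members at 9 months, 19 of them called with one scaling or the other: Fos (-0.68), Fosb (-0.79), Junb (-0.30), Atf3 (-0.45), Klf4 (-0.73), Klf6 (-0.86), Csrnp1 (-0.33), Ier3 (-0.86), Zfp36 (-0.63), Zfp36l1 (-0.36), Btg2 (-0.59), Rgs1 (-0.80), Gadd45b (-0.95), Hspa1a (-0.08), Hspa8 (-0.45), Hsp90aa1 (-1.05), Hsp90ab1 (-0.54), Dnajb1 (-0.40) and Hspd1 (-0.63). The 3 called with neither were Jun (-0.59), Nr4a1 (-0.57) and Nr4a3 (-0.72). It also turned the age difference of 21 members, of which Egr2 (1.60) was called. The construction of that scaling lowers every CD11c+ value alike at 9 months. For the other changes the cause was not tested. Depth limits Hspa1a, Hspa1b, Egr3 and Nr4a3 at P5, where counts of 0 to 168 lie behind the values.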
